A study of Mus musculus with 60 samples.

Results

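The 9 genes examined belong to the MHC class I system, which presents peptides at the cell surface, and make up 9 of the 21999 genes in the deposited table: the light chain gene B2m, the heavy chain genes H2-K1, H2-D1, H2-T22, H2-T23 and H2-T24, and the peptide loading genes Tap1, Tap2 and Tapbp. All 9 listed symbols were in the table, and all 9 passed the low-count filter in every region. The list was drawn up with results of knockout against wild-type mice in these data known, so values of that comparison are given as a description. The sources used here do not state which values chose the genes, and that comparison was taken as the one used. The diet, the interaction of diet and genotype, the brain regions and the variation between mice were taken as not used, and were tested.

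The study sequenced poly(A) RNA of 3 brain regions, namely prefrontal cortex, striatum and hippocampus, in 20 mice, which gave 60 libraries. Mice were wild type (WT) or had a knockout of Glo1 (KO), the gene of glyoxalase 1, an enzyme that detoxifies methylglyoxal. From 8 to 12 weeks of age they ate a normal diet (1.4 mg of vitamin B6 per 100 g) or a diet lacking vitamin B6 (5 µg per 100 g), with 5 mice in each of the 4 combinations and 1 library per mouse and region. The sources used here do not give how the knockout was made or the strain of the mice.

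MHC class I molecules consist of a heavy chain paired with beta-2 microglobulin, the product of B2m, and display peptides from inside the cell to T cells and natural killer cells. Tap1 and Tap2 form the transporter that moves these peptides into the endoplasmic reticulum, and tapasin, made from Tapbp, holds the empty class I molecule next to the transporter. In the brain, class I genes are expressed by microglia, endothelial cells and neurons, and they are known for roles in synapse remodelling as well as in immunity.

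Glo1 was measured first, as a check of the labels. Its counts were between 0 and 10 in the 30 KO libraries and between 299 and 734 in the 30 WT libraries. Library totals were between 7640047 and 13928265 counts, and RNA integrity numbers between 7.6 and 9.3. All KO libraries carried batch number 1 and all WT libraries batch number 2 in the labels, so that genotype and batch cannot be told apart in any comparison of KO with WT. Leaving out 1 prefrontal library, that of WT mouse 226 on the lacking diet, raised the number of genes past the threshold between KO and WT in that region from 89 to 390; the 3 of these 9 genes past the threshold were the same with and without it.

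Of the 9 genes, 8 lie on chromosome 17, which also holds Glo1, and B2m lies on chromosome 2. In the GENCODE M21 annotation of GRCm38, the 8 genes lie between 3.33 Mb (Tapbp) and 5.45 Mb (H2-T22) from the start of Glo1. H2-T24, H2-T23 and H2-T22 are neighbours at 5.42, 5.44 and 5.45 Mb, and H2-K1 and H2-D1 lie at 3.41 and 4.68 Mb. Tap1 and Tap2 are adjacent at 3.6 and 3.62 Mb. B2m spans bases 122147686 to 122153083 of chromosome 2 on the plus strand.

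Promoter sequences are shown for 3 genes on which the results below turn. B2m and H2-K1 varied together between mice in the hippocampus, and H2-T22 had the largest KO minus WT difference of the 9 genes in the prefrontal cortex. The windows were taken from RefSeq (GRCm38.p6), which held entries for 7 of the 9 genes (2 starts for H2-K1, of which 1 is shown), and the 250 bases before the transcription start are printed 5′ to 3′ on the gene's strand. Capitals mark matches, on either strand, to the core of the interferon-stimulated response element (GAAA, any 2 bases, GAAA), the CCAAT box (CCAAT), the half-site of the cyclic AMP response element (TGACG) and the core of enhancer A, a site for NF-kappa B factors (GGGATTCCC).
B2m, chr2:122147437-122147686, plus strand: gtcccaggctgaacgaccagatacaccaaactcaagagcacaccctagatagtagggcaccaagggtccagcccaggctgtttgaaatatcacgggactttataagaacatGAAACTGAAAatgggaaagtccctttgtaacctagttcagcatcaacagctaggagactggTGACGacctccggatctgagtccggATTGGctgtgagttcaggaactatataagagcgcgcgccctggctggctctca
H2-K1, chr17:34000348-34000597, minus strand: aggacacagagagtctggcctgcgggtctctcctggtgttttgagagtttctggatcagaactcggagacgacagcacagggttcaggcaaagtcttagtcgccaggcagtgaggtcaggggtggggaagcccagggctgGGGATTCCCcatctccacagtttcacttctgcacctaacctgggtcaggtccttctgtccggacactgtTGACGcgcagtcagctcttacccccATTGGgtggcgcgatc
H2-T22, chr17:36042743-36042992, minus strand: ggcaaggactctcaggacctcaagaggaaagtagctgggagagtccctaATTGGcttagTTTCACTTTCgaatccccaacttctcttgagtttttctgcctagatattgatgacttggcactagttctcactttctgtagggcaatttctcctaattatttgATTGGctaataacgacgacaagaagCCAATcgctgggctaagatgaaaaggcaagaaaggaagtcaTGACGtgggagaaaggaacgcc

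Windows of 300 bases, 250 before and 50 after the start, were searched, and no match overlapped another. The interferon element core was found in the windows of B2m, H2-T22 and H2-T23, 3 of 7 genes, and in 3.44% of all 32851 windows. The enhancer A core was in those of H2-K1 and H2-D1, 2 of 7 genes, and in 0.353% of all windows. A CCAAT box was in the windows of all 7 genes and in 37.4% of all windows, and the cyclic AMP half-site in those of 5 genes and in 20.8% of all windows. A match describes the letters only, and binding was not measured. Only these exact letters were searched, so a window without a match may still hold a variant of the element.

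Levels were compared between genes as RPKM, the count scaled to gene length and library total. B2m was the most abundant of the 9 genes, with a median of 281 RPKM over the 60 libraries (160 to 487). H2-D1 followed at 22.7 RPKM (15 to 47.3), then Tapbp at 5.73 RPKM (3.22 to 8.11), H2-K1 at 3.99 RPKM (2.57 to 7.56) and H2-T22 at 3.12 RPKM (0.866 to 7.58). H2-T24 had a median of 1.4 RPKM (0.516 to 3.29), H2-T23 of 1.05 RPKM (0.0824 to 3.19), Tap2 of 0.436 RPKM (0.0902 to 1) and Tap1 of 0.189 RPKM (0.0546 to 0.399).

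B2m stood above H2-D1, and H2-D1 above Tapbp, in every library, whereas the ranges of all later neighbours in this order overlapped. The gap between the 2 classical heavy chains rests on the lengths behind the deposited values, which were 348 bases for H2-D1 and 2175 bases for H2-K1, against 2579 and 2938 exonic bases in GENCODE M21. The lengths also differed for H2-T22 (1443 against 3414 bases), H2-T23 (1314 against 2889 bases) and, in the other direction, H2-T24 (3153 against 2182 bases). The rank of H2-D1 and the order of the T region genes are therefore uncertain. For B2m, Tap1 and Tap2 both lengths were equal, at 860, 5476 and 3781 bases.

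The depth behind these levels differed widely. B2m was counted 1372 to 4761 times per library, but Tap1 only 3 to 30 times, Tap2 3 to 42 times and H2-T23 1 to 46 times. Class I genes are also a family of near copies. Of the 75-base stretches in its transcripts, the length of the reads, H2-T22 shared 40% with other genes: 25.2% with A930015D03Rik on the opposite strand and 15.7% with its close copy H2-T10. Tapbp shared 18.6%, mostly with the overlapping gene Gm19412, and Tap2 8.27%. H2-T23, H2-D1, H2-K1 and Tap1 shared 5.91%, 5.56%, 3.1% and 2.4%, H2-T24 shared 0.459%, and B2m shared 0%. The sources used here do not state whether counting used the strand. Values of H2-T22, Tapbp and Tap2 may therefore include reads of those neighbours or lack reads shared with them. H2-T10 itself had 0 to 6 counts per library.

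The 3 non-classical heavy chain genes of the T region, whose products are related in fold to H2-K1 and H2-D1 but less variable, differed most between KO and WT mice. H2-T22 and H2-T23 were lower in KO mice in all 3 regions, and H2-T24, which lies next to them, was higher. H2-T22 makes a heavy chain recognised by some gamma-delta T cells without a bound peptide. H2-T23 makes Qa-1, which presents signal peptides of other class I chains to natural killer cell receptors.

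In the prefrontal cortex H2-T22 was measured at 3.16, 5.64 and 7.58 RPKM (lowest, median and highest of 10 WT mice) and at 1.23, 2.06 and 3.84 RPKM in 10 KO mice. Of the 10 KO mice, 9 lay below every WT mouse, and the groups overlapped through WT mouse 273 at 3.16 RPKM and KO mouse 268 at 3.84 RPKM. The log2 fold change, KO minus WT over both diets, was -1.37 ± 0.16 (SE). In the striatum the WT values were 2.43, 3.74 and 4.38 RPKM and the KO values 0.866, 1.9 and 2.85 RPKM, with 8 of 10 KO mice below the WT range and a log2 fold change of -0.87 ± 0.16. In the hippocampus the WT values were 2.55, 4.06 and 5.33 RPKM and the KO values 1.34, 2.67 and 3.83 RPKM. There 5 of 10 KO mice lay below the WT range, and the log2 fold change was -0.61 ± 0.15.

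H2-T23 in the prefrontal cortex was at 1.63, 2.23 and 3.19 RPKM in WT and at 0.873, 1.47 and 2.3 RPKM in KO mice, with 7 of 10 KO mice below the WT range. Its log2 fold change was -0.72 ± 0.17 there. In the striatum it was at 0.505, 1.27 and 2.4 RPKM in WT and at 0.396, 0.647 and 1.2 RPKM in KO mice (log2 fold change -0.89 ± 0.24). In the hippocampus the values were 0.33, 0.946 and 1.74 RPKM in WT and 0.0824, 0.562 and 0.91 RPKM in KO mice (log2 fold change -0.90 ± 0.31). The groups overlapped more in these 2 regions, where 3 and 2 of 10 KO mice lay below the WT range and a library held 1 to 37 counts of the gene.

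H2-T24 ran the other way. It was at 0.806, 0.992 and 1.81 RPKM in WT and at 0.822, 1.77 and 2.6 RPKM in KO mice in the prefrontal cortex, where 5 of 10 KO mice lay above the WT range (log2 fold change 0.62 ± 0.18). In the striatum the values were 0.75, 1.08 and 1.59 RPKM in WT and 1.25, 1.91 and 2.64 RPKM in KO mice (0.84 ± 0.15). In the hippocampus they were 0.516, 0.766 and 1.51 RPKM in WT and 1.03, 1.66 and 3.29 RPKM in KO mice (log2 fold change 1.03 ± 0.21). In both of these regions 8 of 10 KO mice lay above every WT mouse.

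Cell type markers were measured in the same libraries. In the striatum 11 of 12 microglia markers were lower in KO mice, with a median log2 fold change of -0.20. None passed with edgeR, DESeq2 or limma (edgeR, 3 at an unadjusted p under 0.05). Their summed level was 194 to 262 RPKM in WT and 186 to 226 RPKM in KO mice. All 5 oligodendrocyte markers were lower in the striatum (median -0.16; sums of 845 to 1060 RPKM in WT and 791 to 1045 RPKM in KO mice) and in the hippocampus (median -0.26; sums of 707 to 991 and 573 to 987 RPKM). None of these passed with edgeR, DESeq2 or limma (edgeR, 2 and 4 of 5 at an unadjusted p under 0.05). Neuronal markers mostly went the other way, with 1 of 5 lower in the striatum and 0 of 5 in the hippocampus (median 0.06 in both). Of 5 astrocyte markers, 3 and 5 were lower (medians -0.04 and -0.05), and of 10 endothelial markers 7 and 6 (-0.04 and -0.03). In the hippocampus 8 of 12 microglia markers were lower (median -0.03). In bulk tissue, fewer cells of a type and less RNA per cell cannot be told apart. The part of these marker values in the H2-T22, H2-T23 and H2-T24 differences was not tested.

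**Figure D1:**
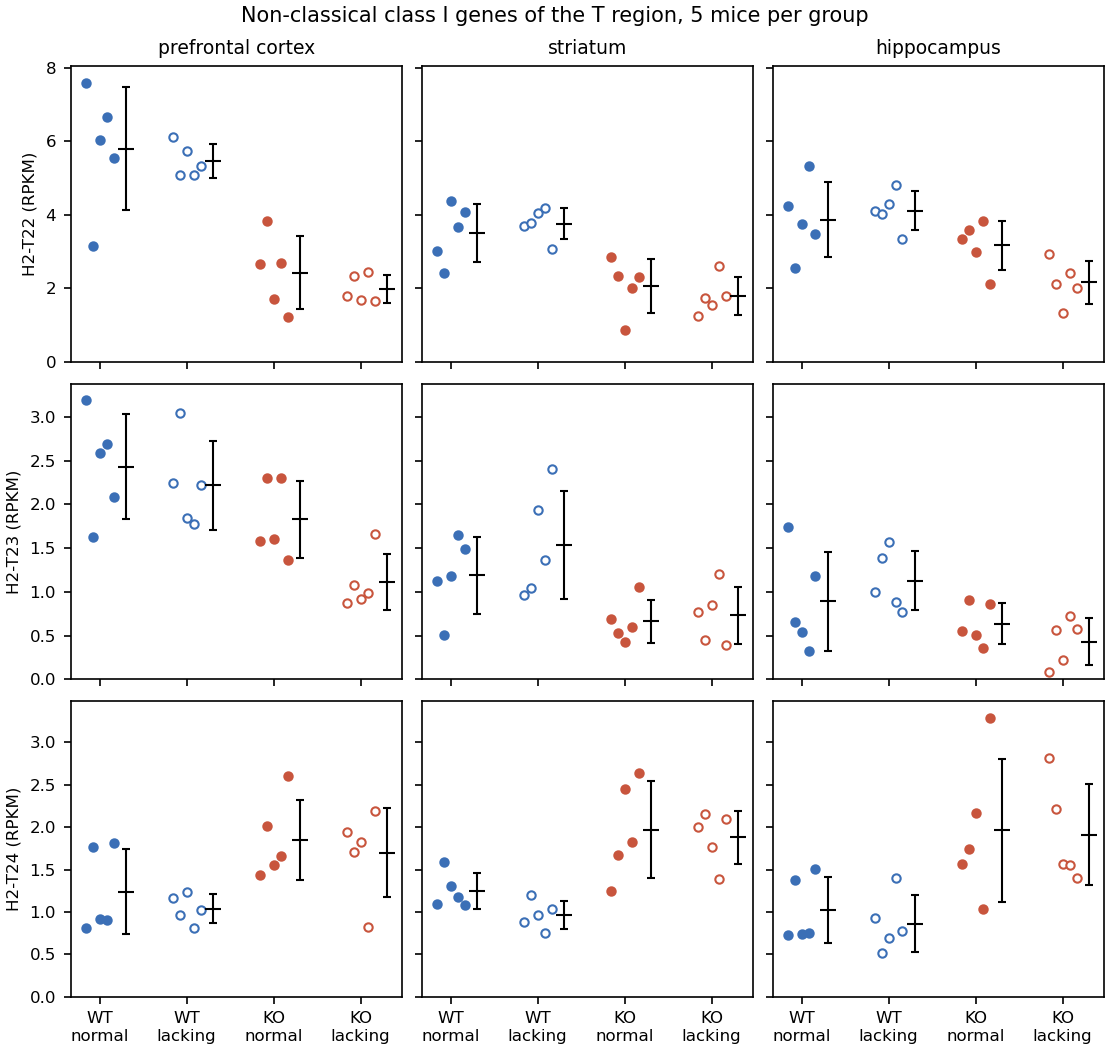
RPKM of H2-T22, H2-T23 and H2-T24 (rows) in each mouse by region (columns) and group on the horizontal axis, with filled points for the normal and open points for the lacking diet, and bars for the mean ± SD of 5 mice. H2-T22 and H2-T23 sit lower and H2-T24 sits higher in most KO mice (red) than in WT mice (blue).

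Over both diets, 3 of the 9 genes passed the threshold of the fit over all genes (edgeR quasi-likelihood test, Benjamini-Hochberg adjusted p under 0.05) in the prefrontal cortex, namely H2-T22, H2-T23 and B2m, against 0.673% of the 13223 genes tested. In the striatum H2-T22 and H2-T24 passed (2 of 9, against 0.203% of 13311 genes), and in the hippocampus H2-T24 (1 of 9, against 0.164% of 13393 genes). The list was taken as chosen on this comparison, and these counts are a description. The calls of H2-T23 in the prefrontal cortex and of H2-T24 in the hippocampus were the least settled: the first held in 4 and the second in 9 of 20 fits that each left out 1 mouse. The fold changes in those fits were between -0.82 and -0.64 for H2-T23 and between 0.89 and 1.15 for H2-T24. DESeq2 also passed H2-T24 in the prefrontal cortex and H2-T22 in the hippocampus.

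The median log2 fold change of the 9 genes was -0.20, -0.15 and -0.07 for prefrontal cortex, striatum and hippocampus, beside 0.001, -0.002 and 0.001 over all genes tested. Of the 9, 6 had the same sign in the 3 regions, as had 24.1% of 12847 genes. An absolute log2 fold change of at least 0.5 with the same sign in all 3 regions was seen in 19 of 12847 genes, 0.148%, and H2-T22, H2-T23 and H2-T24 were 3 of the 19. No member had completely separate KO and WT values, which 0.0908%, 0.0902% and 0.0747% of genes had in the prefrontal cortex, striatum and hippocampus.

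On each diet alone, H2-T22 passed in the prefrontal cortex on the normal diet (log2 fold change -1.24 ± 0.23; 1 of 9, against 0.121% of genes) and on the lacking diet (-1.49 ± 0.24; 1 of 9, against 0.234%). The call on the normal diet was lost without WT mouse 272 (-1.12) and without KO mouse 368 (-1.14). H2-T24 passed in the striatum on the lacking diet (1.01 ± 0.21; 1 of 9, against 0.128%), a call lost with RNA integrity as a covariate (0.95) and in 15 of 20 fits that left out a mouse. None of the 9 passed in the striatum on the normal diet (background 0.0601%) or in the hippocampus on the normal (0.0299%) or the lacking diet (0.0672%). In the hippocampus H2-T22 passed with DESeq2 on the lacking diet (-0.91), and the edgeR values were -0.32 ± 0.22 on the normal and -0.90 ± 0.22 on the lacking diet.

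The 8 genes on chromosome 17 were set beside the other genes of that chromosome. In the prefrontal cortex 2 of the 8 passed, against 33 of 586 other genes of chromosome 17 without Glo1 (5.63%) and 50 of 12317 genes on other chromosomes (0.406%). In the striatum the counts were 2 of 8, 24 of 601 (3.99%) and 0 of 12382 genes, and in the hippocampus 1 of 8, 19 of 587 (3.24%) and 1 of 12474 genes (0.00802%). Between Glo1 and H2-T22, leaving out the members, 1 of 117, 0 of 120 and 1 of 115 genes passed in the prefrontal cortex, striatum and hippocampus. In the 10 Mb on the other side of Glo1, 19 of 161 (11.8%), 14 of 165 (8.48%) and 12 of 159 genes (7.55%) passed. In the 10 Mb after H2-T22, beside the T region genes, 5 of 40 (12.5%), 4 of 39 (10.3%) and 1 of 40 genes (2.5%) passed.

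The nearest tested genes on each side of the classical heavy chains did not pass. Vps52, before H2-K1, had log2 fold changes of 0.18 ± 0.08, -0.21 ± 0.12 and 0.00 ± 0.10 in the prefrontal cortex, striatum and hippocampus, and Ring1, after it, of -0.18 ± 0.10, -0.12 ± 0.10 and -0.11 ± 0.10. Ddx39b, before H2-D1, had values of -0.17 ± 0.08, -0.05 ± 0.09 and 0.07 ± 0.11. H2-T23 is flanked by H2-T24 and H2-T22 themselves, 24.1 kb before and 7.36 kb after it, and these 2 had opposite signs.

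**Figure D2:**
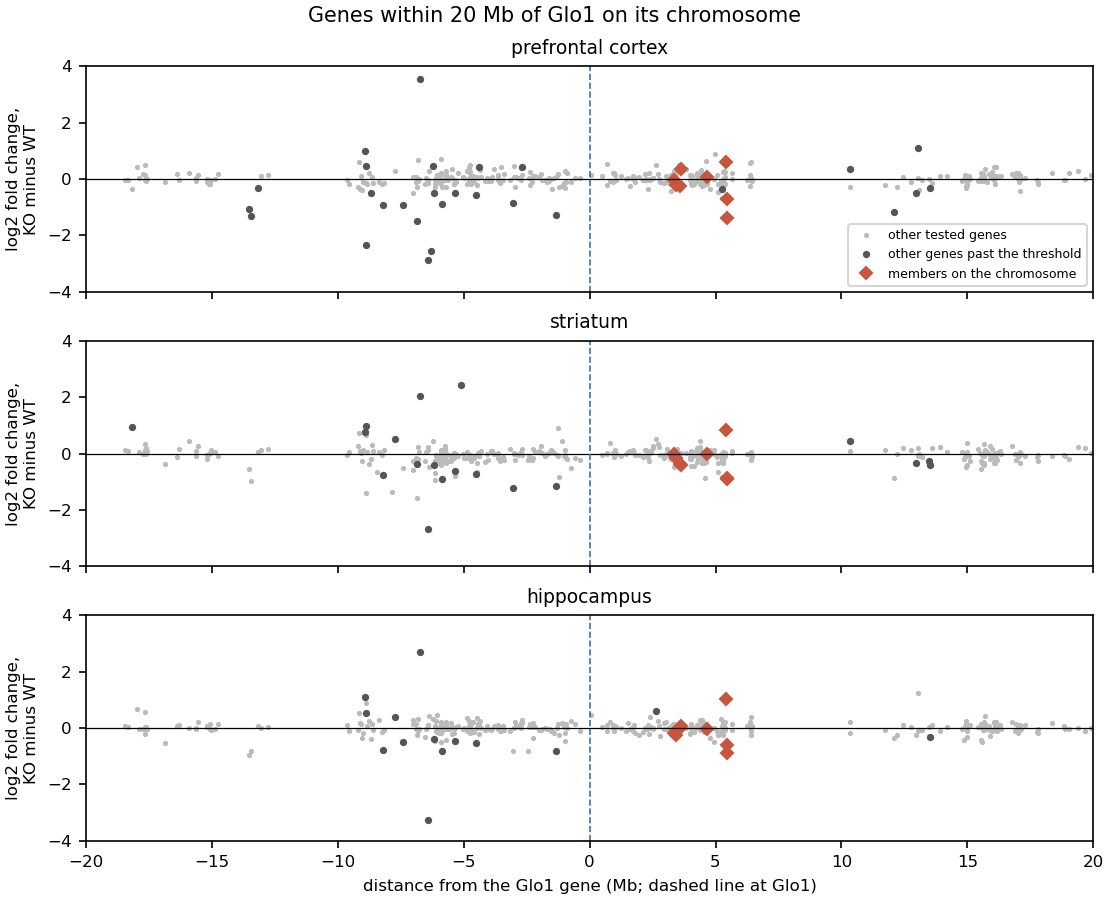
Log2 fold change, KO minus WT over both diets, of each tested gene within 20 Mb of Glo1 on its chromosome (vertical axis) against the distance from Glo1 in Mb (horizontal axis; negative values lie before it), in 3 regions. The members (red diamonds) lie 3.33 to 5.45 Mb after Glo1, where few other genes passed the threshold (dark points), and larger shares passed in the 10 Mb before Glo1 (11.8%, 8.48% and 7.55%) and in the 10 Mb after H2-T22 (12.5%, 10.3% and 2.5%).

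B2m, the gene shared by all class I molecules and the only one of the 9 outside chromosome 17, was lower in KO mice in the prefrontal cortex. It was at 256, 368 and 487 RPKM (lowest, median, highest) in 10 WT mice and at 210, 266 and 389 RPKM in 10 KO mice. Of the 10 KO mice, 4 lay below the WT range, and WT mouse 226, the library that moved the number of called genes most, was the lowest WT mouse. The log2 fold change was -0.44 ± 0.10, and -0.49 ± 0.09 without that library. It passed the threshold with edgeR and DESeq2 but not with limma (-0.42), and was lost in 6 of 20 fits that left out a mouse: WT mice 259 and 317 and KO mice 339, 368, 381 and 390.

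In the other 2 regions the B2m values of the genotypes lay close together. The striatum gave 181, 230 and 292 RPKM in WT and 160, 207 and 291 RPKM in KO mice (log2 fold change -0.09 ± 0.12). The hippocampus gave 245, 328 and 448 RPKM in WT and 239, 319 and 408 RPKM in KO mice (-0.07 ± 0.11). As a direct comparison of the genotype difference, the prefrontal value of B2m was 0.35 ± 0.17 log2 units below the striatal one and 0.37 ± 0.17 below the hippocampal one. Neither passed the threshold.

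Markers of other cell types were measured in the same prefrontal libraries, where 0.673% of all genes passed. Of 12 microglia markers, 10 were lower in KO mice and 1 passed, P2ry12, a purine receptor of resting microglia (log2 fold change -0.38, edgeR adjusted p = 0.0172). Their summed level was 180 to 201 RPKM in WT and 167 to 192 RPKM in KO mice. All 5 astrocyte markers were lower, and Slc1a3, a glutamate transporter, passed (-0.33, edgeR adjusted p = 0.00678), with sums of 285 to 405 RPKM in WT and 260 to 350 RPKM in KO mice. Of 10 endothelial markers, 7 were lower, with sums of 49.5 to 66.3 and 44.4 to 62.3 RPKM. None of the 10 passed with edgeR, DESeq2 or limma (edgeR, 3 at an unadjusted p under 0.05). Of 5 neuronal markers, 4 were lower and 0 passed with edgeR, DESeq2 or limma (edgeR, 3 at an unadjusted p under 0.05). Between mice, within groups, B2m and the mean of the microglia markers had r = -0.28 in this region (permutation p = 0.308). The part of these marker values in the B2m difference was not tested.

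T cell and B cell markers were near 0 in the prefrontal cortex and hippocampus. The 7 T cell markers summed to 0.331 to 0.936 RPKM per prefrontal library and to 0.174 to 0.921 RPKM per hippocampal library, and the 4 B cell markers to at most 0.441 RPKM in any library. In the striatum the T cell sum was 22.2 to 46.9 RPKM, nearly all of it Cd4, with means of 34.2 RPKM in WT and 33.3 RPKM in KO mice. The blood markers summed to 14.4 to 42 RPKM over all libraries.

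The classical heavy chains H2-K1 and H2-D1, which present peptides to CD8 T cells, did not pass in any region. H2-K1 was at 2.57, 4.15 and 5.86 RPKM in WT and at 2.96, 3.49 and 4.24 RPKM in KO mice in the prefrontal cortex, with all 10 KO mice inside the WT range. Its log2 fold changes were -0.20 ± 0.13 there, -0.15 ± 0.11 in the striatum and -0.25 ± 0.13 in the hippocampus. The spread of H2-K1 was wider in WT than in KO mice in all 3 regions, with SDs of 1.04 against 0.462, 0.957 against 0.53 and 1.41 against 0.568 RPKM; this difference in spread was not tested.

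H2-D1 was at 18.7, 22.4 and 30.8 RPKM in WT and at 16.8, 25.2 and 31 RPKM in KO mice in the prefrontal cortex. Its log2 fold changes were 0.07 ± 0.12, -0.03 ± 0.13 and -0.04 ± 0.15 in the 3 regions. In the striatum and hippocampus every KO mouse lay inside the WT range. The widest WT range was that of the hippocampus, 17.5 to 47.3 RPKM, where the highest value came from mouse 241 on the lacking diet. Without this mouse the hippocampal log2 fold change was 0.10.

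**Figure D3:**
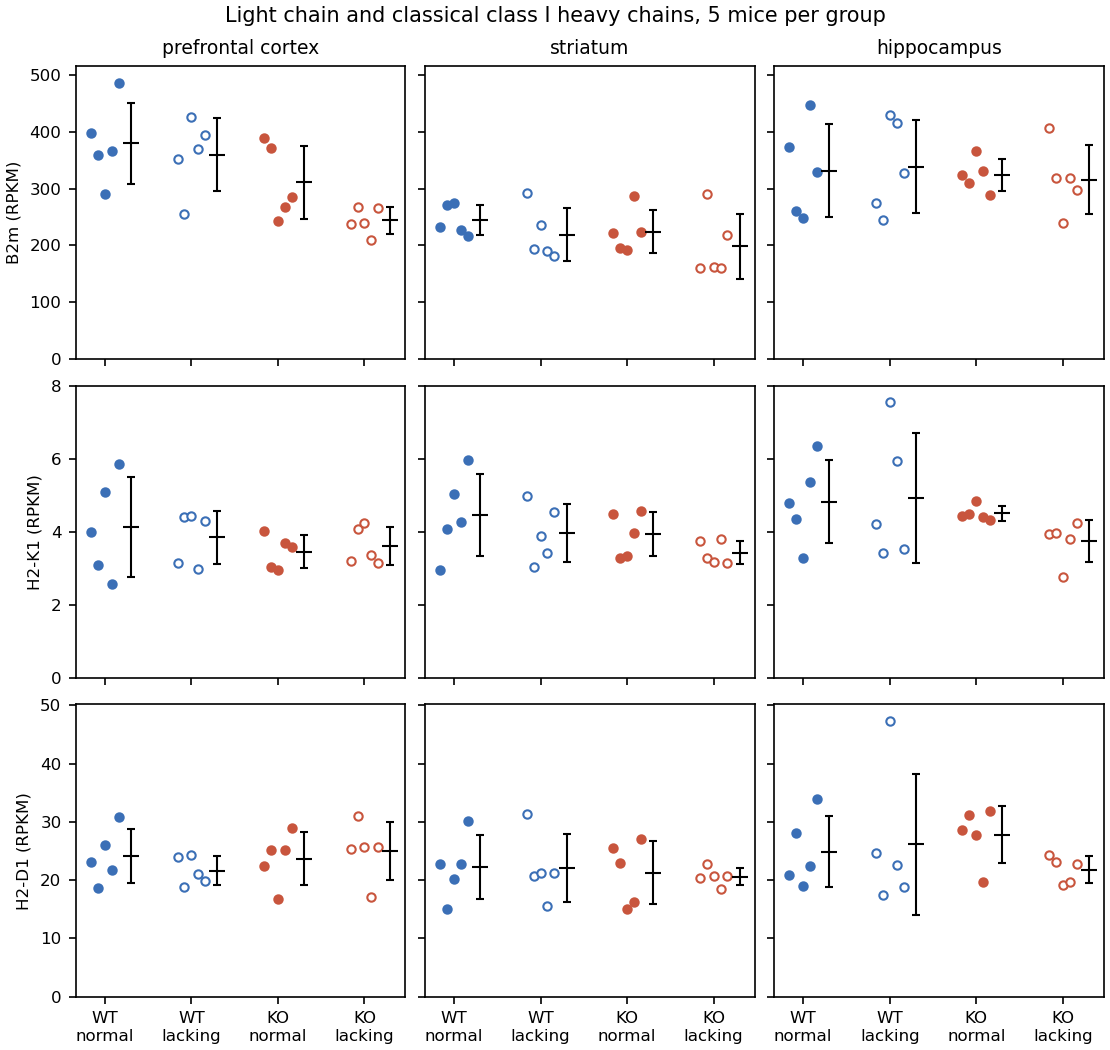
RPKM of B2m, H2-K1 and H2-D1 (rows) in each mouse by region (columns) and group on the horizontal axis, with points and bars (mean ± SD of 5 mice) as in the plot of the T region genes. B2m sits lower in KO than in WT mice in the prefrontal cortex, H2-K1 and H2-D1 overlap widely, and 1 WT hippocampal library stands at 47.3 RPKM of H2-D1.

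None of the 3 loading genes passed between KO and WT in any region. Tap1 had log2 fold changes of -0.26 ± 0.28, -0.36 ± 0.32 and 0.01 ± 0.20 in the prefrontal cortex, striatum and hippocampus, and Tap2 of 0.36 ± 0.22, -0.40 ± 0.25 and 0.09 ± 0.21. These are wide errors for 2 genes with 3 to 42 counts per library. Tapbp was measured more closely, at 110 to 291 counts per library, and its values were -0.04 ± 0.07, -0.01 ± 0.09 and -0.18 ± 0.10. In the prefrontal cortex it was at 5.45, 6.07 and 7.67 RPKM in WT and at 5.23, 6.15 and 6.71 RPKM in KO mice, with 9 of 10 KO mice inside the WT range.

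**Figure D4:**
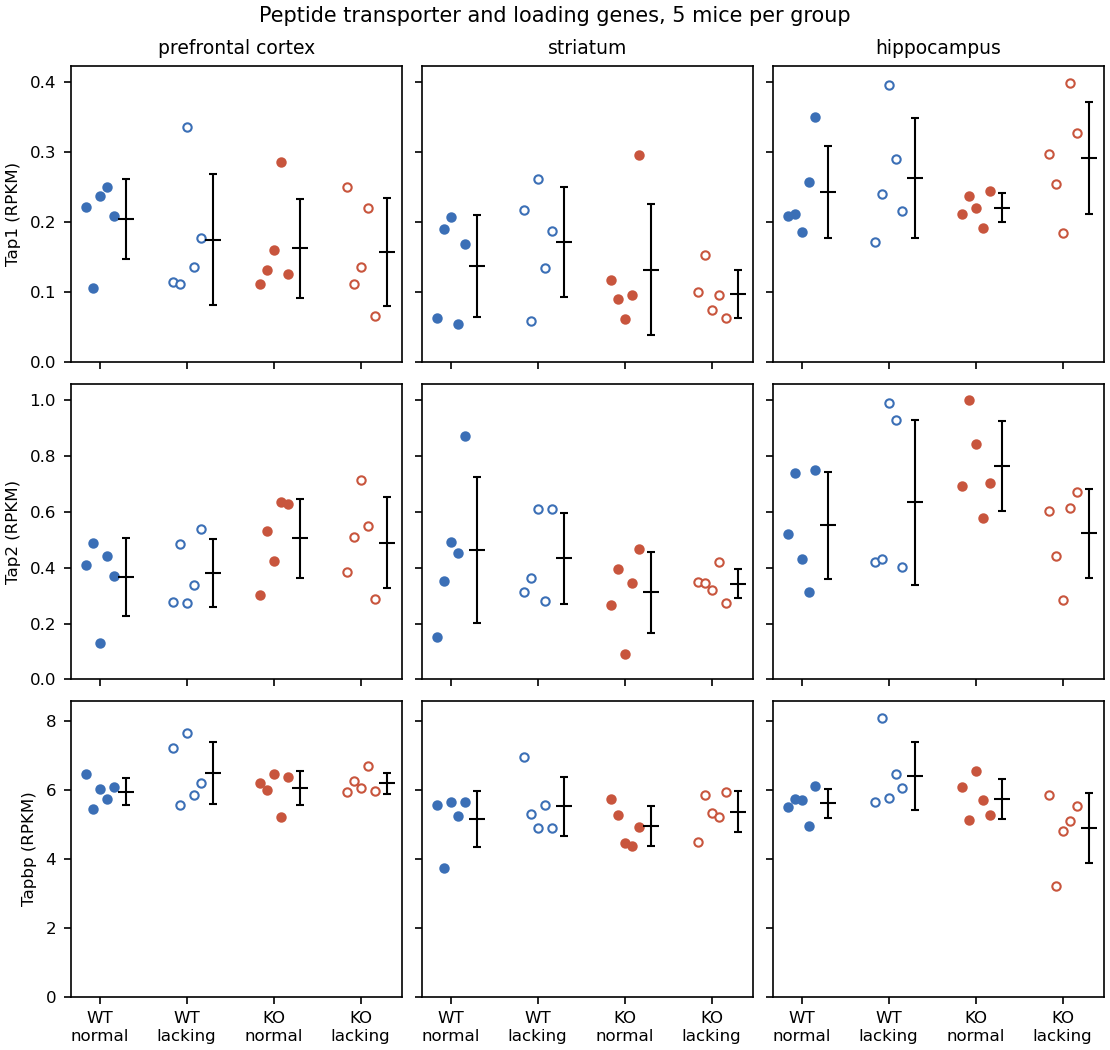
RPKM of Tap1, Tap2 and Tapbp (rows) in each mouse by region (columns) and group on the horizontal axis, with points and bars (mean ± SD of 5 mice) as in the plot of the T region genes. KO and WT values overlap in every region for all 3 genes, and Tap1 stays below 0.4 RPKM in every library.

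The lack of vitamin B6 was the first comparison taken to have had no part in choosing the genes. None of the 9 genes passed between the lacking and the normal diet in WT or in KO mice in any region (edgeR), and neither did any other gene (0% of 13223, 13311 and 13393 genes). DESeq2 and limma also passed 0 of the 9. By the unadjusted p (under 0.05), WT mice showed 0 of the 9 genes in each region, against 2.27%, 2.91% and 4.03% of all genes. KO mice showed 2 of 9 in the prefrontal cortex (5.19% of all genes), 0 for the striatum (1.68%) and 1 of 9 for the hippocampus (6.56%). These were B2m and H2-T23 in the prefrontal cortex and H2-T22 in the hippocampus, and their values are given next because of that p. The share of all genes with a like separation of the diets was not counted.

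B2m in the prefrontal cortex of KO mice was at 389, 372, 243, 267 and 286 RPKM on the normal diet and at 238, 268, 240, 210 and 265 RPKM on the lacking diet. The groups overlapped, with 2 of the mice on the normal diet well above the rest. The log2 fold change, lacking minus normal, was -0.37 ± 0.14 (edgeR adjusted p = 0.911). In WT mice B2m was at 398, 359, 290, 366 and 487 RPKM on the normal and at 352, 256, 426, 370 and 395 RPKM on the lacking diet (-0.07 ± 0.14). The interaction, the diet difference in KO minus that in WT mice, was -0.29 ± 0.19 with a 95% interval of -0.67 to 0.08.

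H2-T23 in the prefrontal cortex of KO mice was at 1.58, 2.3, 1.61, 2.3 and 1.36 RPKM on the normal diet and at 0.873, 1.08, 0.923, 0.986 and 1.66 RPKM on the lacking diet. Among the mice on the lacking diet, 4 of 5 had less than any mouse on the normal diet, and mouse 452 stood above the other 4. The log2 fold change was -0.72 ± 0.25 (edgeR adjusted p = 0.911), and that in WT mice was -0.11 ± 0.24. The interaction was -0.61 ± 0.35, with a 95% interval of -1.30 to 0.07.

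H2-T22 in the hippocampus of KO mice was at 3.34, 3.59, 2.98, 3.83 and 2.13 RPKM on the normal diet and at 2.93, 2.13, 1.34, 2.42 and 2.02 RPKM on the lacking diet. Of the 5 mice on the normal diet, 4 lay above all on the lacking diet. The log2 fold change was -0.52 ± 0.22 (edgeR adjusted p = 0.719), against 0.07 ± 0.21 in WT mice, and the interaction was -0.58 ± 0.31 (95% interval -1.18 to 0.02).

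No interaction of genotype and diet passed for any of the 9 genes or any other gene (edgeR, 0% of genes in each region; also 0 of 9 with DESeq2 and limma), and with edgeR 0 of the 9 had an unadjusted p under 0.05 in each region, against 3.17%, 1.7% and 9.45% of all genes. DESeq2 also gave 0 of 9 by the unadjusted p, and limma gave 0, 0 and 2 of 9 for prefrontal cortex, striatum and hippocampus. The shares of all genes above are those of edgeR, and none is given here for DESeq2 or limma to set beside their counts. In the hippocampus the interaction values of H2-K1, H2-D1 and Tapbp were -0.23 ± 0.27, -0.35 ± 0.29 and -0.37 ± 0.19. The 95% intervals of the diet differences, taken from the normal distribution and so somewhat narrow, show what these data could have missed. They ran from -0.19 to 0.21 for Tapbp in the prefrontal cortex of KO mice, but for Tap1 in the striatum of KO mice from -1.47 to 0.41.

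**Figure D5:**
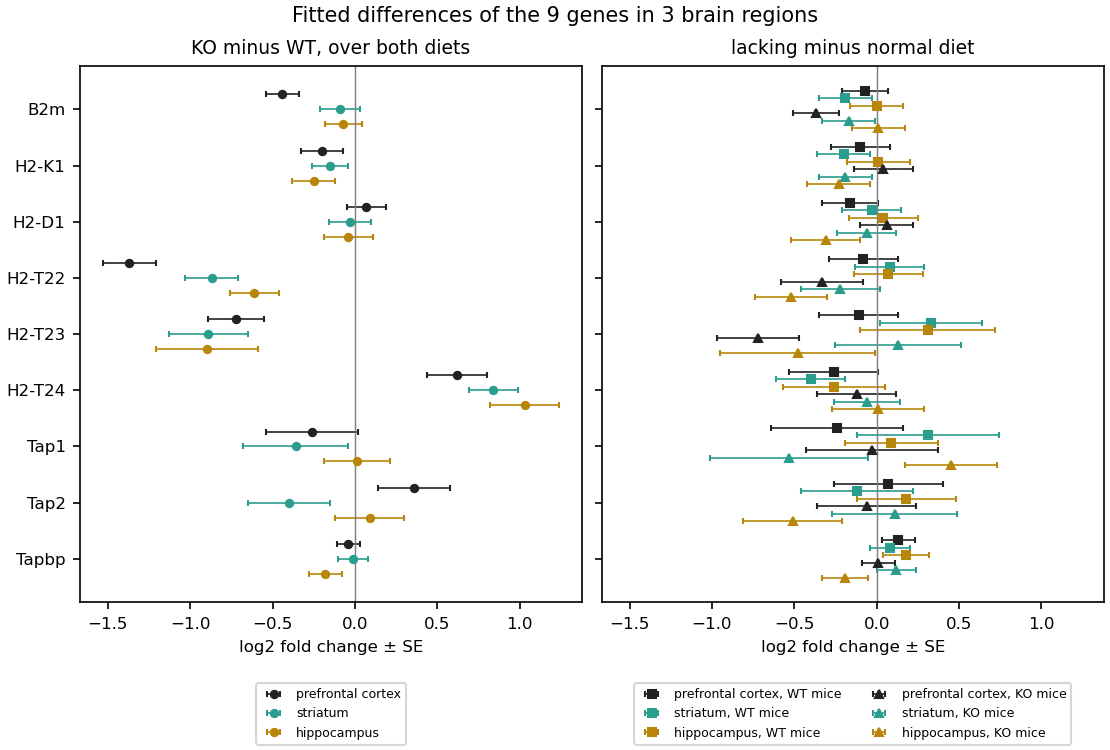
Fitted log2 fold changes ± SE of the 9 genes (vertical axis) for KO minus WT over both diets (left) and for the lacking minus the normal diet in WT (squares) and KO mice (triangles) (right), coloured by region. On the left the T region genes lie farthest from 0, with H2-T24 on the opposite side from H2-T22 and H2-T23; on the right no value passed the threshold.

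Regional levels were compared over all 60 libraries, averaged over genotype and diet. The fit had no mouse term, so the errors and p-values given take the 3 libraries of an animal as independent. Between the prefrontal cortex and the striatum 4 of the 9 genes passed, all higher in the prefrontal cortex, against 69.9% of 13930 genes (34% higher and 35.9% lower). Between the prefrontal cortex and the hippocampus 4 of 9 passed, 2 in each direction (59.3% of genes, 29.1% higher and 30.2% lower), and between the striatum and the hippocampus 4 of 9, 1 higher in the striatum and 3 lower (66.4% of genes, 33.6% higher and 32.9% lower). Beside these backgrounds the members' counts are not high. With the mouse as a replicate block, which uses that the 3 regions came from the same animals, the same 4, 4 and 4 genes passed.

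B2m was at 210, 321 and 487 RPKM (lowest, median, highest of 20 mice) in the prefrontal cortex, at 160, 219 and 292 RPKM in the striatum and at 239, 321 and 448 RPKM in the hippocampus. The striatum was lowest, with overlapping ranges. It lay below the prefrontal cortex by a log2 difference of 0.51 ± 0.08 (edgeR adjusted p = 3.69e-07), and striatum minus hippocampus was -0.49 ± 0.08 (edgeR adjusted p = 1.12e-06). The other 2 regions differed by 0.02 ± 0.08.

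H2-T23 had the steepest regional order, with 0.873, 1.81 and 3.19 RPKM in the prefrontal cortex, 0.396, 1 and 2.4 RPKM in the striatum and 0.0824, 0.691 and 1.74 RPKM in the hippocampus. The log2 difference was 0.87 ± 0.16 between prefrontal cortex and striatum (edgeR adjusted p = 3.67e-06), 1.37 ± 0.17 between prefrontal cortex and hippocampus (edgeR adjusted p = 2.13e-10) and 0.51 ± 0.18 between striatum and hippocampus (edgeR adjusted p = 0.0121). H2-T22, its neighbour, was higher in the prefrontal cortex than in the striatum (0.39 ± 0.12, edgeR adjusted p = 0.00275) and lay between both in the hippocampus, with neither of those differences past the threshold. H2-T24 did not differ past the threshold between any of the regions, with differences of -0.06 ± 0.13, 0.14 ± 0.13 and 0.20 ± 0.13 for the same 3 contrasts.

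The transporter genes were highest in the hippocampus. Tap1 was at 0.172, 0.239 and 0.399 RPKM there, at 0.0665, 0.148 and 0.336 RPKM in the prefrontal cortex and at 0.0546, 0.108 and 0.296 RPKM in the striatum. Striatum minus hippocampus was -0.85 ± 0.19 (edgeR adjusted p = 7.41e-05) and prefrontal cortex minus hippocampus -0.49 ± 0.18 (edgeR adjusted p = 0.0168). Tap2 had a median of 0.609 RPKM in the hippocampus, 0.433 RPKM in the prefrontal cortex and 0.35 RPKM in the striatum, with differences of -0.58 ± 0.16 (edgeR adjusted p = 0.00148) and -0.44 ± 0.16 (edgeR adjusted p = 0.015) against the hippocampus. For both genes the prefrontal cortex and striatum did not differ past the threshold.

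Tapbp was slightly higher in the prefrontal cortex, by 0.21 ± 0.06 over the striatum (edgeR adjusted p = 0.00144) and 0.19 ± 0.06 over the hippocampus (edgeR adjusted p = 0.00552). The latter call was lost on library totals without scaling factors (0.13, edgeR adjusted p = 0.0514). H2-K1 and H2-D1 did not pass in any pair of regions. H2-K1 in the prefrontal cortex against the hippocampus was nearest, at -0.19 ± 0.09 (edgeR adjusted p = 0.0591), and passed with DESeq2, limma and unscaled totals.

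The difference of KO and WT was also compared between regions, in the same fit without a mouse term. None of the 9 genes passed (edgeR; background 0% of genes for the prefrontal cortex against the striatum, 0.00718% against the hippocampus and 0% for the striatum against the hippocampus). H2-T22 had the widest gap of the 9 between the prefrontal cortex and the hippocampus, at -0.75 ± 0.23, and Tap2 between the prefrontal cortex and the striatum, at 0.76 ± 0.34. Since the list was taken as chosen on the underlying comparison, these values are a description.

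Covariation between mice was measured within each region over 20 mice, after subtracting the mean of each group of 5, for 7 pairs fixed for each of the 3 regions. Of the 21 relations, 3 passed by Pearson's r after Benjamini-Hochberg adjustment (two-sided permutation of mice within groups, 100000 resamples), and 1 of these also by Spearman's rho. That one was B2m with H2-K1 in the hippocampus, with r = 0.73 (permutation p = 0.00516, adjusted 0.0396) and rho = 0.75 (permutation p = 0.00204, adjusted 0.0428). Without the 2 mice farthest from the median of B2m, r was 0.70. In the prefrontal cortex and striatum the same pair had r = 0.16 and 0.12.

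H2-K1 with H2-D1 in the hippocampus had r = 0.70 (permutation p = 0.00392, adjusted 0.0396) and rho = 0.49 (permutation p = 0.0405, adjusted 0.213), and r fell to 0.51 without the 2 mice farthest in H2-K1. For prefrontal cortex and striatum the pair had r = 0.44 and 0.36. H2-D1 with the mean of 12 microglia markers in the striatum had r = 0.67 (permutation p = 0.00566, adjusted 0.0396) and rho = 0.54 (permutation p = 0.033, adjusted 0.213), and 0.62 without the 2 farthest mice. The same relation had r = -0.04 in the prefrontal cortex and 0.40 in the hippocampus. B2m with the microglia markers had r = -0.28, 0.05 and 0.19 in the prefrontal cortex, striatum and hippocampus, and none of these passed (permutation p = 0.308, 0.845 and 0.466).

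The genes most like the mean of B2m, H2-D1 and H2-K1 were then sought among 13046 genes over the 60 libraries, with group means subtracted. The 60 libraries come from 20 mice, and these values are a description. The leading 5 outside the members were Gbp2 (Pearson's r = 0.61, Spearman's rho = 0.59), Iigp1 (r = 0.56, rho = 0.45), Ezr (r = 0.56, rho = 0.63), Ifit1 (r = 0.55, rho = 0.46) and Oasl2 (r = 0.53, rho = 0.40). Gbp2, Iigp1, Ifit1 and Oasl2 are genes known to be induced by interferons, and Ezr codes for ezrin, a linker of membrane and actin, on chromosome 17. Without the 2 libraries farthest from the median, the hippocampus of mouse 241 and the prefrontal cortex of WT mouse 317, r was 0.58, 0.41, 0.61, 0.43 and 0.43 in the same order.

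Among the members that are not part of that mean, Tap1 came nearest to it (r = 0.41). H2-T22 and Tap2 (both r = 0.29), H2-T24 (0.28) and Tapbp (0.10) followed, while H2-T23 had r = 0.01. For Tap1 r was 0.74 in the hippocampus, 0.55 in the striatum and 0.11 in the prefrontal cortex. Tap1 rests on few counts, which limits any such value.

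Mouse 241 on the lacking diet had high values of many of these genes in its hippocampus. Its H2-D1 was at 47.3 RPKM against 17.5 to 24.6 RPKM in the other 4 WT mice on that diet, its H2-K1 at 7.56 against 3.41 to 5.95 RPKM, its Tap1 at 0.396 against 0.172 to 0.29 RPKM and its Tap2 at 0.99 against 0.402 to 0.928 RPKM. Iigp1 was at 4.13 against 1.3 to 1.98 RPKM, Ifit1 at 5.16 against 1.62 to 2.94 RPKM and Oasl2 at 1.99 against 0.878 to 1.37 RPKM. Gbp2, at 2.62 against 1.37 to 2.62 RPKM, and Ezr, at 25.9 against 19.2 to 30.8 RPKM, did not stand above the other 4. H2-T22, H2-T24 and Tapbp of this library lay inside the range of the other 4. The library was 1 of the 2 farthest on the mean of B2m, H2-D1 and H2-K1, so its high H2-D1 and H2-K1 values are part of that choice.

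Other genes of the pathway were counted from lists. Of 25 further class I and class I-like genes, 21 were in the table and 5, 7 and 5 were tested in the prefrontal cortex, striatum and hippocampus. None passed between KO and WT with edgeR, DESeq2 or limma (edgeR, 1, 0 and 0 at an unadjusted p under 0.05). H2-Q4, a Q region class I gene, had log2 fold changes of -0.34 ± 0.23, 0.13 ± 0.23 and -0.36 ± 0.23, and H2-M5 of 0.59 ± 0.25, 0.05 ± 0.27 and 0.40 ± 0.32 in the 3 regions. H2-Q10, H2-T3 and H2-Bl had at most 3 counts in any library.

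Of 13 other genes of class I processing (such as the immunoproteasome, the proteasome activator, calnexin and trimming peptidases), 12 were tested in each region. None of the 12 passed with edgeR, DESeq2 or limma (edgeR, 3, 0 and 0 at an unadjusted p under 0.05). Their median log2 fold changes were -0.01, 0.01 and 0.00. Psme1, a subunit of the proteasome activator, was at -0.28 ± 0.09 in the prefrontal cortex (edgeR adjusted p = 0.151), and Tapbpl, a relative of tapasin, at 0.37 ± 0.17 (edgeR adjusted p = 0.308).

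Of 12 transcription factors that act on class I promoters, 11, 11 and 12 were tested. None passed with edgeR, DESeq2 or limma (edgeR, 1, 2 and 0 at an unadjusted p under 0.05). Nfya, a subunit of the factor that binds the CCAAT box, was at -0.18 ± 0.08, -0.25 ± 0.07 and -0.16 ± 0.08 in the 3 regions and did not pass the threshold in any of them.

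Of 26 interferon target genes, 21, 20 and 22 were tested. Between KO and WT 0 passed with edgeR, DESeq2 or limma (edgeR, 0, 0 and 4 at an unadjusted p under 0.05). Their median log2 fold change was -0.11, -0.05 and -0.20 in the same order, with 16 of 21, 16 of 20 and 20 of 22 negative, beside 0.001, -0.002 and 0.001 over all genes. In the hippocampus the median was -0.39 on the lacking and -0.01 on the normal diet. None passed between diets either (edgeR; 0 with DESeq2 and limma), where the hippocampal median was -0.33 in KO and 0.07 in WT mice. At an unadjusted p under 0.05, 5 of 22 differed between diets in the hippocampus of KO mice (6.56% of all genes) and 0 of 22 in that of WT mice. Between KO and WT in the hippocampus the unadjusted count was 9 of 22 on the lacking and 0 of 22 on the normal diet. The share over all genes was not counted for that comparison. The interaction of genotype and diet compares the KO and WT difference directly between the diets. There 4 of 22 had an unadjusted p under 0.05 (edgeR, 9.45% of all genes) and 0 passed.

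Of 12 class II genes, 11 were in the table and 2, 3 and 2 were tested, with 0 past the threshold (edgeR; 1, 1 and 0 at an unadjusted p under 0.05). H2-DMa, which loads peptides onto class II molecules and lies in the same chromosomal complex, was at 0.51 ± 0.15 in the prefrontal cortex (edgeR adjusted p = 0.102; DESeq2 passed it and limma did not), -0.37 ± 0.17 in the striatum and 0.10 ± 0.20 in the hippocampus. Of 8 receptors and complement genes tied to class I in neurons, 4, 5 and 5 were tested. None passed with edgeR, DESeq2 or limma (edgeR, 1, 3 and 0 at an unadjusted p under 0.05). C4b was at -0.43 ± 0.16 in the striatum (edgeR adjusted p = 0.74).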

How the data were processed

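The authors deposited raw counts per gene (whole numbers) and RPKM values for 60 libraries; the submitters' processing notes name STAR 2.7.1a, HTSeq 0.9.1 and the mouse build mm10. Per the labels, poly(A) beads took mRNA out of 2 µg of RNA per sample, and sequencing was single-end over 75 bases. The deposited RPKM values equalled the count divided by one gene length and the library total (within 1e-06 for 18514 genes). Of the value columns, 0 were unmatched to a sample.

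The members, gene lists and tests were chosen with earlier results of these data known. Each region (20 libraries) was fitted with edgeR 4.0.16 in R 4.3.3 on the deposited counts (TMM, filterByExpr, quasi-likelihood test, group means), with p-values adjusted over all genes tested by Benjamini-Hochberg at 0.05. Regions were compared in 1 fit of all 60 libraries. Standard errors were derived from the F statistics. In the fits of 1 region, p-values measure the spread between mice. The fit of all 60 libraries had no mouse term, so its errors and p-values take the 3 libraries of an animal as independent. Steps were tested on simulated data. All 9 members were named, as were listed genes past the threshold or with the 3 smallest p-values of their list, the 5 genes most like the class I mean and the nearest neighbours of 3 members.

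Mouse numbers in the labels are shared by the 3 regions of an animal and pair them across regions only. For covariation, log2 CPM with a prior count of 2 was used, and markers needed a mean of 1 CPM. A count of 3 lay between 0.215 and 0.393 CPM, which covers counting error only. Chi-square per gene was between 1.94 and 26.2 over 120 replicate pairs, so no libraries were copies. Alternatives were DESeq2 1.42.0, limma 3.58.1 on log2(RPKM + 1), totals without TMM, other filters, RNA integrity as a covariate, only the compared groups, the mouse as a block and leaving out each mouse. Likeness without single libraries was added after seeing the data. Gene positions came from GENCODE M21 (GRCm38) and promoters from RefSeq (GRCm38.p6).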

Additional observations from a re-analysis of the deposited data

Results flagged for a closer look

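Each gene's RPKM was examined in each of the 12 groups of 5 mice, 108 sets in all, for a mouse whose gap to the nearest other mouse took over 0.71 of the whole range. Chance flags about 1 in 20 groups, or 5.4 of 108, and 6 were found. H2-D1 in the hippocampus of WT mouse 241 on the lacking diet stood at 47.3 RPKM, above 17.5 to 24.6 RPKM in the other 4 mice (167 counts against 60 to 94). H2-T23 in the prefrontal cortex of KO mouse 452 on the lacking diet was at 1.66 RPKM, above 0.873 to 1.08 RPKM. Tap1 was high in the prefrontal cortex of KO mouse 381 on the normal diet (0.286 RPKM against 0.112 to 0.16) and in the striatum of KO mouse 390 on the normal diet (0.296 RPKM against 0.0623 to 0.117, and 21 counts against 3 to 7). WT mouse 273 on the normal diet was low for Tap1 in the prefrontal cortex (0.106 RPKM against 0.209 to 0.251) and for Tapbp in the striatum (3.74 RPKM against 5.24 to 5.66). Of these 6 libraries, 3 had an RNA integrity number outside the range of the other 4 of their group: 7.7 against 8.1 to 8.6 (mouse 273, prefrontal cortex), 7.8 against 8.1 to 8.8 (mouse 390, striatum) and 9 against 8.5 to 8.7 (mouse 273, striatum). The part of RNA quality in these values was not tested.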

How the results depend on the processing

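Counts refer to the 9 genes past the threshold. In the comparison of KO with WT over both diets, the hippocampus had 1, and 2 with DESeq2, 0 with limma and 0 without TMM factors; the range over fits that each left out 1 mouse was 0 to 1 there, 1 to 3 in the prefrontal cortex (main count 3) and 2 to 2 in the striatum (2). On the lacking diet the prefrontal cortex had 1, and 2 with DESeq2, without a low-count filter, with RNA integrity as a covariate and with only the compared groups (1 to 2 when a mouse was left out). The striatum had 1 on that diet, and 2 with DESeq2 and 0 with limma, without TMM factors, without a low-count filter and with RNA integrity (0 to 2 when a mouse was left out). The hippocampus had 0 on that diet and 1 with DESeq2 (0 to 0). On the normal diet the prefrontal cortex had 1 (0 to 1 when a mouse was left out), and the striatum and hippocampus 0 (0 to 0). The diet and interaction counts, and those of KO effects between regions, were 0 in every fit run. Between regions the counts were 4 (prefrontal cortex against striatum, 4 to 5; against hippocampus, 4 to 5; striatum against hippocampus, 4 to 4), and with the mouse as a replicate block 4, 4 and 4; the block changed no call of the 9 genes. No called value changed sign in any alternative. H2-T23 lost its prefrontal call without TMM factors (-0.70) and H2-T24 its hippocampal call with limma (0.58) and without TMM factors (1.02); the cause was not tested. H2-T24 lost the hippocampal call without WT mice 225, 226, 241, 259, 272, 283 and 286 and KO mice 242, 244, 368 and 390, each in turn. Over all genes, KO against WT calls rose in the prefrontal cortex from 89 to 230 with DESeq2 and 189 with RNA integrity as a covariate, with a range of 46 to 390 when a mouse was left out, and in the hippocampus from 22 to 38 and 41. Depth limits Tap1, Tap2 and H2-T23 most.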
